A study of Rattus norvegicus with 138 samples.

Results

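Small leucine-rich proteoglycans are secreted matrix proteins built of repeated leucine-rich segments that bind to collagen. 8 of them were followed in injured rat muscle: decorin (Dcn), biglycan (Bgn), asporin (Aspn), fibromodulin (Fmod), lumican (Lum), the proline and arginine-rich end leucine-rich repeat protein (Prelp), osteomodulin or osteoadherin (Omd) and osteoglycin or mimecan (Ogn). They were chosen as a family by gene symbol, with earlier results of these data known, and are 8 of the 16181 symbols of the expression table. The family is grouped by protein sequence and gene structure. Decorin, biglycan and asporin form class I, fibromodulin, lumican, Prelp and osteomodulin belong to class II, and osteoglycin belongs to class III. Members sit on the surface of collagen fibrils and control how fibrils assemble, how thick they become and how they are spaced. Decorin and biglycan carry chondroitin or dermatan sulfate chains, whereas fibromodulin and lumican can carry keratan sulfate. Decorin also binds transforming growth factor beta and myostatin, and soluble biglycan is known as a ligand of Toll-like receptors. In muscle these proteins are made mainly by the fibroblasts and fibroadipogenic progenitors of the connective tissue layers, and in tendon fibromodulin and decorin are prominent.

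The samples were tibialis anterior (TA) muscles of adult male Lewis rats, in which a full-thickness punch biopsy through the middle of 1 TA caused volumetric muscle loss (VML), an injury that removes muscle with its stem cells, nerves and vessels. In non-repaired rats the defect was left empty, and in minced muscle graft (MMG) rats it was filled with the excised tissue of the same animal, cut into small pieces. Injured and contralateral TA muscles were collected at 3, 7, 14 and 28 days post injury (DPI) from non-running rats and from rats that ran, and RNA of whole homogenized muscle was sequenced. Levels are TPM, transcripts normalized to the library's total and to transcript length, so genes can be compared within a muscle but read depth is not retained. Control muscle came from the day 0 rats that the labels call sham, 4 muscles from the left and right legs of 2 rats. These rats carry another series number than all operated rats, so control against operated animals and 1 numbered series against another cannot be told apart. All groups were of this 1 strain, and the graft was autologous. Non-repaired injured muscle without running had 3, 8, 4 and 4 muscles at 3, 7, 14 and 28 DPI, and MMG injured muscle had 7, 8, 4 and 4. The contralateral muscles of non-running rats numbered 2, 4, 2 and 2 in the non-repaired arm and 2, 6, 2 and 2 in the MMG arm. Among running rats there were 8, 4, 4 and 2 non-repaired and 6, 4, 4 and 2 MMG injured muscles, with 2 contralateral muscles in each arm at 3, 7 and 14 DPI.

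Of the libraries with a group, 13 listed 901 to 5712 symbols above 1 TPM and were left out because fewer than 7000 was the limit, and 9 further libraries had labels that contradicted each other and entered no group. The 116 libraries kept, from 114 muscles of 78 rats, listed 7866 to 10948 symbols above 1 TPM. One control muscle, the right TA of rat TS4.038, had the lowest of these counts and also the lowest control level of 6 of the 8 genes. In keeping with TA, a fast muscle, 12 fast fiber markers together took 249500 to 319320 TPM in control muscle. In whole muscle, fewer cells of a type and less RNA per cell cannot be told apart.

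The start regions of the family are shown so that the genes can be compared at the sequence level before their levels are. RefSeq's GRCr8 table of promoter windows matched 5 of the 8 genes by symbol, and each window covers 250 bases before and 50 bases after the annotated start on the coding strand. Lum, Ogn, Omd and Fmod are printed because the effect of injury on them at 28 DPI differed from that at 3 DPI. Their windows lie at chr7:34245456-34245755 (plus strand), chr17:15258946-15259245 (minus strand), chr17:15274821-15275120 (minus strand) and chr13:48045317-48045616 (plus strand). Capitals mark matches to the motifs searched.
Lum: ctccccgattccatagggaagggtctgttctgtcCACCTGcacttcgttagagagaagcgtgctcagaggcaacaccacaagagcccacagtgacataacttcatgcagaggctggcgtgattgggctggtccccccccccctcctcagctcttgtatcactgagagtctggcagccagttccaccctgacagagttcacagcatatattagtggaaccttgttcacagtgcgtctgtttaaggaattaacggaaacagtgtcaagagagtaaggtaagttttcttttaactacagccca
Ogn: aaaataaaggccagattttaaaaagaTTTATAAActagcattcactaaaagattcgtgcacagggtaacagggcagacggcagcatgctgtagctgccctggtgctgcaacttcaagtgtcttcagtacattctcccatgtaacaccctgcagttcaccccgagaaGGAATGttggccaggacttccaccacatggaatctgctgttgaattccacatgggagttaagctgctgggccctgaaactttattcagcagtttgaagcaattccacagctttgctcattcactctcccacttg
Omd: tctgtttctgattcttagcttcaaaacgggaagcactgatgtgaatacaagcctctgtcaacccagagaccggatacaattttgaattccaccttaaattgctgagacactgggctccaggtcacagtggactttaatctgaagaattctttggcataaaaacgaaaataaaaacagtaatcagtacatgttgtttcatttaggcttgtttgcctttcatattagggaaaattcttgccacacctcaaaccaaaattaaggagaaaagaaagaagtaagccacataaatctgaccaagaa
Fmod: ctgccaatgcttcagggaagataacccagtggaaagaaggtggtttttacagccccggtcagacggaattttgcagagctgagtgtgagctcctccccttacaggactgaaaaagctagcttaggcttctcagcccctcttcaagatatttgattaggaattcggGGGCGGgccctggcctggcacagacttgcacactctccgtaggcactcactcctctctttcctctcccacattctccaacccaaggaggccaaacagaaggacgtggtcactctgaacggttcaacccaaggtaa
5 motifs were searched on both strands: the TATA box TATAAA, the AP-1 site TGANTCA, the TEAD site CATTCC, the GC box GGGCGG and the E-box CAGNTG. Among the 33469 promoters of the table, 14.2% held the TATA box, 7.33% the AP-1 site, 14.2% the TEAD site, 33.1% the GC box and 50.2% the E-box. The Lum window held an E-box from base -216 to -211 on the opposite strand. The Ogn window held overlapping TATA box matches on both strands, from -224 to -217, and a TEAD match from -84 to -79 on the opposite strand. Fmod held a GC box from -85 to -80, and in the windows of Omd and of Aspn, at chr17:15310420-15310719 (minus strand), these letters were not found. GC content was 52.7% in Fmod, 50.7% in Lum, 46% in Ogn, 39% in Aspn and 37.7% in Omd. Ogn, Omd and Aspn lie side by side on chromosome 17 and on the same strand.

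Transcripts of most of the family at 3 DPI, and of all 8 genes later, were higher in injured than in control muscle. Against control muscle, 6 of the 8 genes were called higher at 3 DPI in non-repaired muscle, and all 8 were at 7, 14 and 28 DPI. A gene was called where limma's adjusted p was below 0.05 and the log2 fold change of TPM + 1 was beyond 1. The background was high, since 48.3%, 45.6%, 25% and 21.1% of the 11328 tested genes were called higher at 3, 7, 14 and 28 DPI. The family median was 3.17, 3.84, 3.57 and 3.20 on the log2 scale at these days, where the median of all tested genes was 0.96, 0.91, 0.53 and 0.52. Scaling by median-of-ratios size factors in place of TPM moved the medians of all genes to 0.11, 0.11, 0.04 and 0.06 and those of the family to 2.07, 2.85, 2.98 and 2.62, and it turned the share of calls that were higher from 91.9%, 95%, 97.9% and 99% to 59.1%, 60.9%, 73.2% and 79.3%. The family counts were 6, 7, 8 and 8 with that scaling, because Omd at 7 DPI was 0.47 and uncalled.

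Decorin, the class I member with a single glycosaminoglycan chain, was the most abundant of the 8 in control muscle. In the 4 control muscles Dcn was listed at 32.9, 101.5, 109 and 131.4 TPM. The 3 non-repaired muscles at 3 DPI held 654, 768 and 869 TPM. All 3 lay above the highest control muscle. At 7 DPI the 8 muscles ranged from 528 to 1213 TPM with a median of 939 TPM. At 14 DPI the values were 571, 579, 614 and 794 TPM, and at 28 DPI they were 468, 552, 569 and 583 TPM. No injured muscle of any day overlapped the controls. The log2 fold changes (± SE) were 3.17 ± 0.30, 3.38 ± 0.24, 2.91 ± 0.28 and 2.69 ± 0.28 at 3, 7, 14 and 28 DPI, each with an adjusted p of at most 5.4e-14.

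Biglycan, the class I member with a pair of glycosaminoglycan chains, started from a far lower level. Control muscle held 4.79, 5.47, 6.19 and 7.24 TPM of Bgn. Non-repaired muscle held 201, 359 and 469.5 TPM at 3 DPI. Every value was above the control range. The 8 muscles of 7 DPI ran from 398 to 1024 TPM with a median of 672 TPM. Values were 224, 241, 282 and 336 TPM at 14 DPI and 119.7, 124, 132.1 and 215 TPM at 28 DPI. Control and injured muscles did not overlap on any day. On the log2 scale the changes were 5.56 ± 0.37, 6.54 ± 0.29, 5.29 ± 0.34 and 4.40 ± 0.34 at 3, 7, 14 and 28 DPI, with adjusted p at most 1.0e-19.

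Asporin, a class I protein with a run of aspartate residues and no glycosaminoglycan chain, was low in uninjured muscle. Aspn stood at 0.190, 1.46, 2.36 and 2.67 TPM in the control muscles. It stood at 68.9, 112 and 158 TPM in injured muscle at 3 DPI. These lay well above control, and the 7 DPI muscles went further still. By 7 DPI Aspn spanned values from 211 to 554 TPM with a median of 314 TPM. The 14 DPI muscles held 191, 197, 222 and 275 TPM and the 28 DPI muscles 43.3, 80.8, 80.96 and 166 TPM. The 28 DPI values were all below those of 14 DPI and above control. Aspn differed from control by 5.46 ± 0.42, 7.01 ± 0.34, 6.49 ± 0.39 and 5.0975 ± 0.39 at 3, 7, 14 and 28 DPI, with adjusted p at most 8.3e-20. The pseudocount of 1 TPM understates the change of a gene this low in control muscle.

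Lumican, a class II protein that sets collagen fibril diameter and is needed for corneal clarity, showed the largest change of the 8 in log2(TPM + 1) at 3 and 7 DPI. With a pseudocount of 0.1 TPM the order turned at 7 DPI, with 7.895 for Aspn and 7.565 for Lum, and the mean TPM of the 7 DPI muscles was 200-fold and 177-fold that of control muscle. In the 4 control muscles Lum was listed at 2.23, 7.50, 9.50 and 11.5 TPM. The 3 non-repaired muscles at 3 DPI held 628, 932 and 1037 TPM. Lumican thereby reached levels comparable with those of decorin in the same muscles. At 7 DPI the 8 muscles ranged from 635 to 2042 TPM with a median of 1530.0 TPM. At 14 DPI the values were 405, 416, 422 and 629 TPM, and at 28 DPI they were 113, 180.0, 199 and 252 TPM. The injured groups were above control on each day, with lower values at 14 and 28 DPI than at 7 DPI. The log2 fold changes were 6.77 ± 0.35, 7.35 ± 0.28, 5.89 ± 0.33 and 4.53 ± 0.33 at 3, 7, 14 and 28 DPI, with adjusted p at most 3.1e-21.

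Fibromodulin, a class II protein that guides collagen fibril growth and cross-linking and is abundant in tendon, behaved differently at 3 DPI. Control muscle held 2.93, 3.47, 5.76 and 8.57 TPM of Fmod. Non-repaired muscle held 7.05, 7.62 and 23.3 TPM at 3 DPI. The lower values lay inside the control range and the highest was above it. The 8 muscles of 7 DPI ran from 20.9 to 163 TPM with a median of 67.2 TPM. Values were 31.2, 35.6, 50.4 and 71.5 TPM at 14 DPI and 12.2, 13.8, 37.8 and 57.8 TPM at 28 DPI. The 7 DPI muscles varied widely, which is taken up again with the tendon genes. On the log2 scale the changes were 1.04 ± 0.80, 3.37 ± 0.64, 2.98 ± 0.74 and 2.15 ± 0.74 at 3, 7, 14 and 28 DPI. The adjusted p was 0.22 at 3 DPI, so the change was not called then, and 1.4e-06, 2.5e-04 and 0.0075 later.

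Prelp is a class II protein that anchors basement membranes to the underlying collagen. Prelp stood at 4.18, 4.99, 5.43 and 6.97 TPM in the control muscles. It stood at 40.0, 65.8 and 65.9 TPM in injured muscle at 3 DPI. No injured muscle fell into the control range. By 7 DPI Prelp spanned values from 49.0 to 124.8 TPM with a median of 79.4 TPM. The 14 DPI muscles held 50.8, 55.5, 55.5 and 76.6 TPM and the 28 DPI muscles 44.6, 47.0, 56.7 and 79.7 TPM. The ranges of the 4 days overlapped one another. Prelp differed from control by 3.17 ± 0.35, 3.65 ± 0.28, 3.24 ± 0.32 and 3.16 ± 0.32 at 3, 7, 14 and 28 DPI, with adjusted p at most 8.8e-14.

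Osteomodulin, a class II protein first known from bone matrix, was the lowest of the 8 genes in injured muscle. In the 4 control muscles Omd was listed at 0.560, 0.770, 1.05 and 1.40 TPM. The 3 non-repaired muscles at 3 DPI held 1.62, 2.10 and 2.86 TPM. The 3 DPI difference stayed below the fold limit, which it passed (1.165) with a pseudocount of 0.1 TPM. At 7 DPI the 8 muscles ranged from 2.04 to 4.40 TPM with a median of 3.10 TPM. At 14 DPI the values were 3.20, 3.96, 4.97 and 6.05 TPM, and at 28 DPI they were 5.44, 5.87, 5.95 and 6.08 TPM. The mean was highest at 28 DPI, whereas that of each of the other 7 genes was highest at 7 DPI. The log2 fold changes were 0.72 ± 0.24, 1.10 ± 0.19, 1.503 ± 0.22 and 1.83 ± 0.22 at 3, 7, 14 and 28 DPI. Adjusted p was 0.0041 at 3 DPI with a change under the limit, and 1.6e-07, 4.4e-09 and 1.3e-11 at the later days, when Omd was called. The 7 DPI call was near the limit and was lost without the right control TA of rat TS4.038, with a value of 0.9986.

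Osteoglycin, the class III member, takes part in fibril assembly and is also known as a circulating factor of muscle and bone. Control muscle held 2.77, 9.72, 11.99 and 13.5 TPM of Ogn. Non-repaired muscle held 49.7, 54.6 and 87.2 TPM at 3 DPI. Control and injured muscles did not overlap. The 8 muscles of 7 DPI ran from 96.6 to 237 TPM with a median of 149 TPM. Values were 124.95, 128.1, 131.1 and 173 TPM at 14 DPI and 72.04, 79.5, 79.7 and 124 TPM at 28 DPI. The 14 DPI values lay within the range of 7 DPI. On the log2 scale the changes were 2.75 ± 0.31, 4.02 ± 0.25, 3.90 ± 0.29 and 3.23 ± 0.29 at 3, 7, 14 and 28 DPI, with adjusted p at most 2.0e-13.

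Injured muscle lay entirely above control muscle for 7 genes at 3 DPI and for all 8 genes at 7, 14 and 28 DPI. The same held for 69.9%, 66%, 58.9% and 60.2% of all tested genes, so such a gap was common in this comparison.

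**Figure D1:**
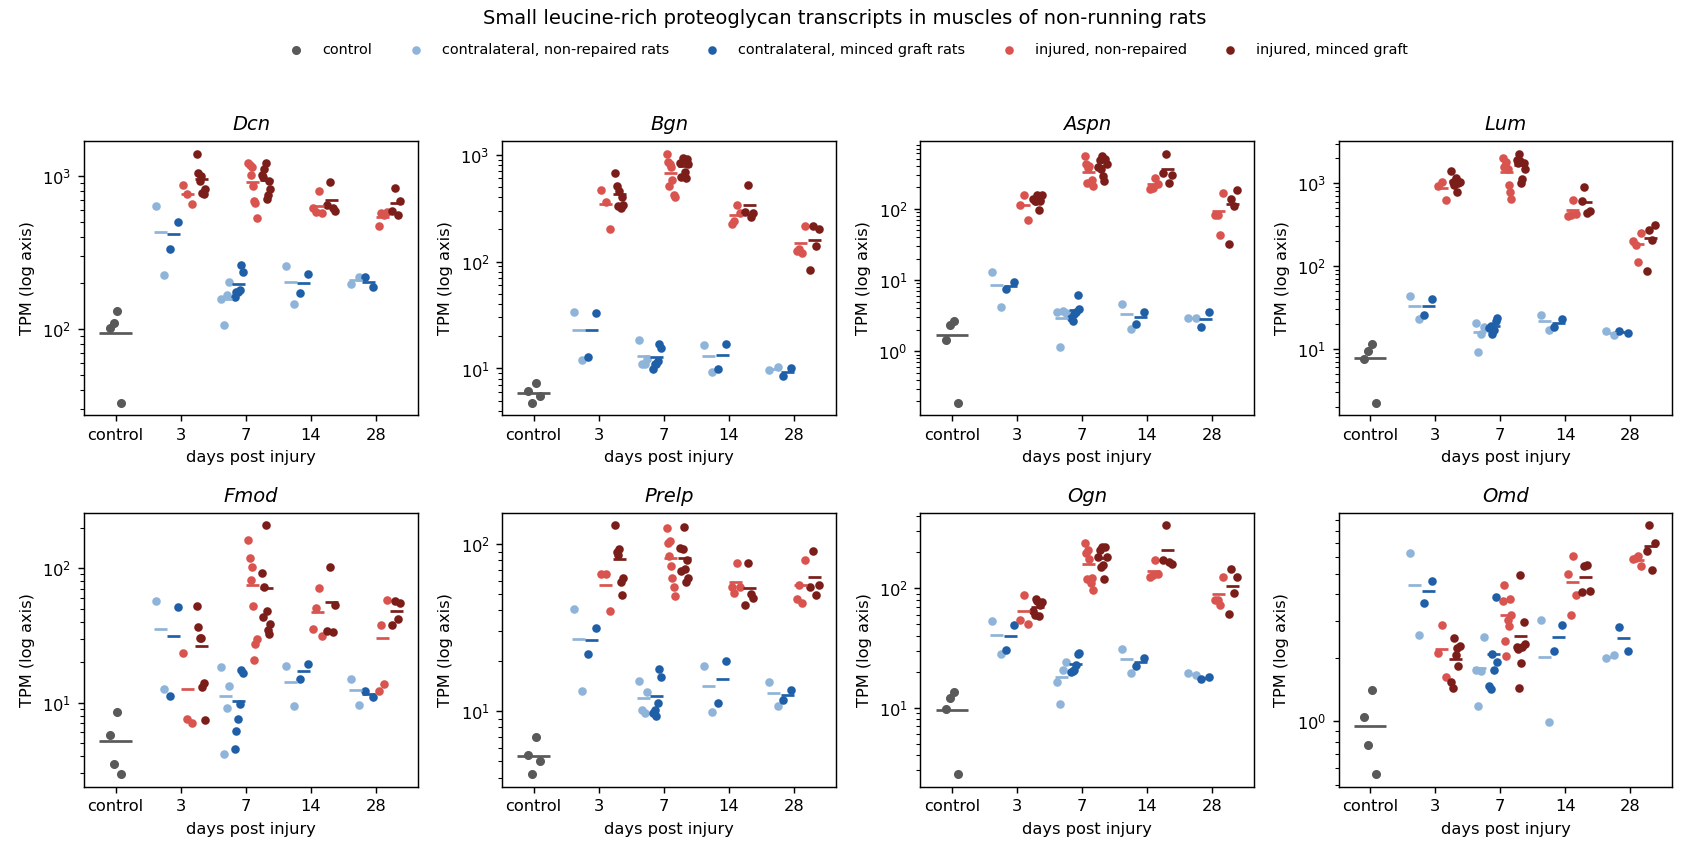
Level of each gene in single muscles of non-running rats, in TPM on a log axis, by days post injury. Points are muscles, horizontal lines are group means and colors mark control, contralateral and injured muscle of the non-repaired and MMG arms. Injured muscles lie above control for all 8 genes from 7 DPI on, and the injured and contralateral points of Fmod and Omd mix at 3 DPI.

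Cell type markers also changed after injury, in different directions and with different courses. The 12 fast fiber markers summed to 48101 to 65567, 71284 to 154270, 196730 to 239940 and 197760 to 233190 TPM in non-repaired muscle of the 4 days, below the control range throughout, and 12, 9, 3 and 1 of the 12 were called lower. Of all tested genes 4.24%, 2.42%, 0.547% and 0.212% were called lower in TPM, and 16.7%, 13.9%, 5.73% and 2.97% with size factors. The 10 leukocyte markers rose from 17.4 to 38.4 TPM in control to 4786 to 6374 at 3 DPI, then lay at 666 to 3179, 433 to 534 and 246 to 847, and all 10 were called on each day. For fibroblasts and fibroadipogenic progenitors, 9 of 10 listed markers were in the table and 8 of 9 were called higher on each day, with sums of 39.1 to 65.6 TPM in control and 455 to 844, 579 to 1083, 523 to 744 and 363 to 488 TPM after injury. The 5 tendon markers went from 27.9 to 44.3 to 149 to 212, 244 to 529, 204 to 329.8 and 127.1 to 207 TPM, with 4, 5, 4 and 3 called. These 4 lists had no marker at 0 in all muscles of a group. Of the 9 cartilage and bone markers, Acan and Hapln1 were listed at 0 in all 4 control muscles, the sum was 3.82 to 5.56 TPM in control and 13.2 to 25.7 at 7 DPI, and 1, 2, 2 and 0 of 5 tested were called higher. Of 8 endothelial markers 6, 7, 4 and 2 were called higher, of 8 mural markers 6, 7, 6 and 4, of 6 Schwann cell markers 3, 3, 3 and 5, and of 6 adipocyte markers 2, 2, 2 and 6. Beside the 48.3%, 45.6%, 25% and 21.1% of all genes called higher, the shares of Schwann cell markers at 3 and 7 DPI, adipocyte markers at 3, 7 and 14 DPI, endothelial markers at 28 DPI and cartilage and bone markers at 3, 7 and 28 DPI were near or below the background. At 7 DPI the endothelial, mural, Schwann cell and adipocyte markers summed to 228 to 386, 401 to 793, 62.9 to 142.8 and 467 to 1051 TPM, against 55.3 to 132.03, 90.1 to 196, 13.9 to 26.6 and 93.1 to 327 TPM in control. The part of these cell types in the change of the 8 genes was not tested.

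The make-up of the family changed along with its total. The summed level of the 8 genes was 129.9 ± 55.5 TPM in control muscle (mean ± SD, n = 4) and 2221 ± 496, 3593 ± 1196, 1849.6 ± 342 and 1152 ± 233 TPM in non-repaired injured muscle at 3, 7, 14 and 28 DPI (n = 3, 8, 4 and 4). Decorin made up 70.7% of the sum in control muscle, and 35.0%, 25.8%, 34.7% and 48.1% after injury. Lumican took 5.62% in control and 38.9%, 37.2%, 25.2% and 16% after injury. Control muscle was dominated by decorin transcripts, and at 3 and 7 DPI lumican was level with or above decorin. Biglycan went from 5.55% to 15.1%, 18.8%, 14.7% and 12.7%, and asporin from 1.12% to 4.99%, 9.39%, 11.97% and 7.68%. By 28 DPI decorin again held the largest share, yet biglycan, lumican and asporin stayed above their control shares. These shares are descriptions and were not tested.

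**Figure D2:**
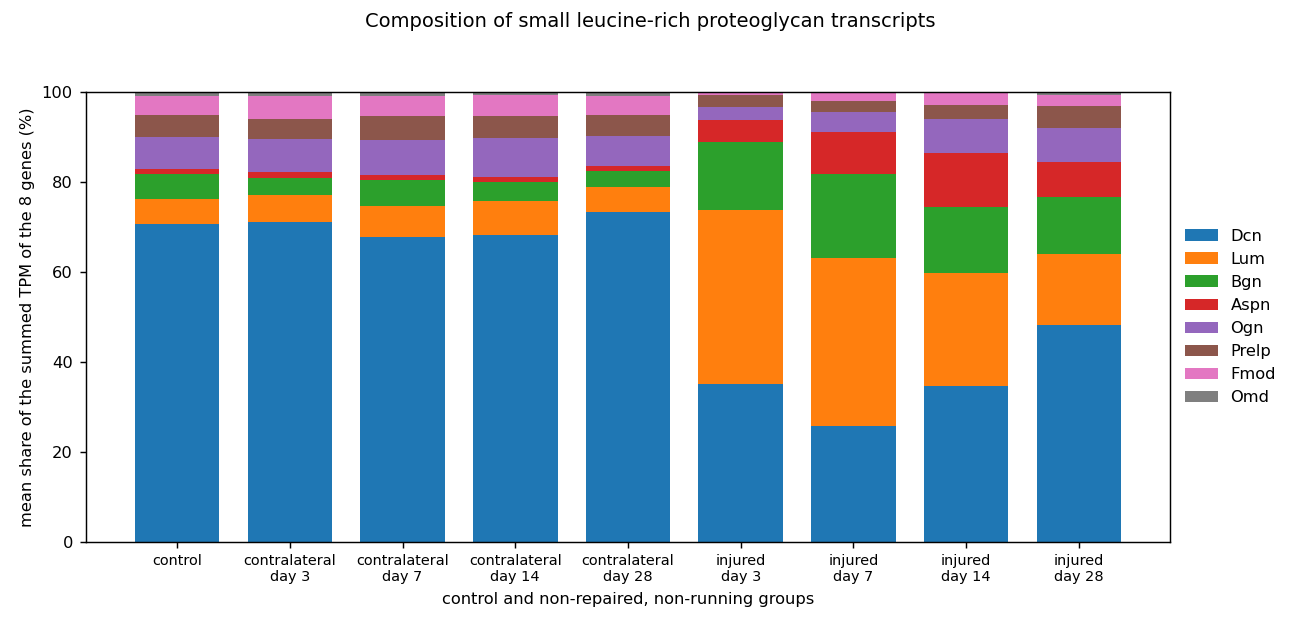
Mean share of each gene in the summed TPM of the 8 genes, in percent, for control muscle and for contralateral and injured muscle of non-repaired, non-running rats by days post injury. Decorin fills most of the control and contralateral bars, and lumican, biglycan and asporin widen in the injured bars.

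Contralateral muscle of operated rats was not at the control level. Over both arms without running (n = 4, 10, 4 and 4), Dcn lay at 225 to 640.5, 105.6 to 263, 145 to 259 and 188 to 220.0 TPM on the successive days, against 32.9, 101.5, 109 and 131.4 TPM in control. Lum lay at 23.02 to 43.5, 9.11 to 23.5, 16.8 to 25.9 and 14.8 to 16.3 TPM on the successive days, where control muscle held 2.23, 7.50, 9.50 and 11.5 TPM. At 3 DPI every contralateral muscle was above every control muscle for these collagen-binding genes, and later values were nearer to control. The share of all tested genes with such a gap was not computed here, so the gap is only a description. All 8 genes were called higher at 3 DPI, with log2 fold changes of 2.23 ± 0.28 for Dcn, 2.03 ± 0.32 for Prelp, 2.09 ± 0.29 for Ogn, 1.65 ± 0.34 for Bgn, 2.08 ± 0.33 for Lum, 1.86 ± 0.39 for Aspn, 2.20 ± 0.74 for Fmod and 1.41 ± 0.22 for Omd, each on the log2(TPM + 1) scale. The largest adjusted p of the 8 was 0.0073. Fmod was not called with size factors (1.73, adjusted p = 0.053), and the count was 7 without the contralateral muscle of rat TS5.010 or TS5.014. Of all tested genes, 7.15% were called in either direction at that day, 99.1% of them higher in TPM and 84.9% with size factors. At 7, 14 and 28 DPI, 4, 4 and 3 of the 8 were called higher. Of all genes, 1.04%, 1.03% and 0.512% were called in either direction on these days, 86.4%, 92.3% and 96.6% of them higher in TPM. The later counts of 4, 4 and 3 depended on the control muscles and on other choices. With the 4 control muscles averaged to 2 rats they were 1, 1 and 0, and without the right TA of rat TS4.038 they were 1, 3 and 0. They were 0, 0 and 0 with the low-complexity libraries kept, and 0 at 14 and 28 DPI when no other groups were fitted. At 28 DPI leaving out the contralateral muscle of rat TS5.073, TS5.074, TS5.075 or TS5.076 left 1. With the rat as a random block they were 5, 4 and 2, and with size factors 2, 4 and 2. Under the block Bgn at 7 DPI was called (1.001, adjusted p = 0.0112) and Prelp at 28 DPI was not (1.10, adjusted p = 0.0515). At 3 DPI contralateral leukocyte markers summed to 74.2 to 205 TPM in the non-repaired arm and 140.2 to 191 in the MMG arm, fibroblast markers to 118 to 284 and 194 to 224, and tendon markers to 74.5 to 136.6 and 75.98 to 119, all above the control ranges given earlier, and their part in the difference was not tested.

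Set against the contralateral leg, the picture at 3 DPI was narrower. Non-repaired injured muscle had 4 of the 8 genes called higher at 3 DPI, Bgn at 3.93 ± 0.44, Lum at 4.70 ± 0.42, Aspn at 3.67 ± 0.51 and Prelp at 1.22 ± 0.42, and 7, 6 and 7 genes at 7, 14 and 28 DPI. With size factors Prelp was 0.65 at 3 DPI (adjusted p = 0.13) and was not called. Of all tested genes, 32.3%, 45.3%, 20.9% and 13.1% were called higher at the 4 days. In MMG muscle the counts were 5, 7, 6 and 7, beside 37.2%, 42.9%, 25.6% and 18.8% of all genes. With size factors the share of calls over all genes that were higher went from 84.5%, 95.8%, 99.2% and 98.4% to 60.1%, 59.3%, 73.5% and 82.8% in non-repaired rats, and from 84.6%, 92.7%, 98% and 98.4% to 57.4%, 60.8%, 67.7% and 74.8% in MMG rats, where Dcn (0.48) and Prelp (0.82) lost their calls at 3 DPI. Dcn at 3 DPI stood at the limit, with 0.997 ± 0.36 in non-repaired muscle (adjusted p = 0.0104, not called) and 1.20 ± 0.31 in MMG muscle (adjusted p = 4.2e-04, called). With the rat as a random block the first became 1.00 (adjusted p = 0.0095) and was called. Only 2 contralateral muscles stood behind the non-repaired values: without that of rat TS5.017, Dcn was 0.243, Prelp was 0.446 and no longer called, and Omd was -1.21 and called lower, and without that of rat TS5.010, Dcn was 1.75 and Ogn 1.11, both called. Dcn was also called, at 1.105, without the injured muscle of rat TS5.018. In MMG rats, Dcn was 0.902 and not called without the contralateral muscle of rat TS5.013, and Ogn was 1.16 and called without that of rat TS5.014. Ogn, Fmod and Omd were not called at 3 DPI in either arm. Ogn differed by 0.66 ± 0.37 and 0.83 ± 0.32 (adjusted p = 0.1 and 0.017). Fmod differed by -1.25 ± 0.95 and -0.13 ± 0.84 in the 2 arms (adjusted p = 0.23 and 0.89), and the first value was -2.30 without the contralateral muscle of rat TS5.017 and -0.20 without that of rat TS5.010. Omd differed by -0.70 ± 0.28 and -0.79 ± 0.25 (adjusted p = 0.023 and 0.003). The difference for Omd passed the fold limit with size factors, at -1.10 and -1.26, and was negative with either scaling. With a pseudocount of 0.1 TPM, Omd was called lower in MMG muscle, at -1.04 (limma, adjusted p = 0.0037). At 7 DPI its sign turned with the scaling, since Omd differed by 0.58 ± 0.19 and 0.19 ± 0.17 in TPM and by -0.18 and -0.46 with size factors.

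By 7 DPI the injured leg stood well above the other leg. Non-repaired muscle differed from its contralateral group by 6.29 ± 0.28 for Lum, 6.39 ± 0.34 for Aspn, 5.52 ± 0.29 for Bgn, 3.06 ± 0.25 for Ogn, 2.46 ± 0.64 for Fmod, 2.63 ± 0.28 for Prelp and 2.502 ± 0.24 for Dcn. The injured group came from rats TS5.011 to TS5.126 and the contralateral group from rats TS5.105 to TS5.126 alone. In the 4 rats from TS5.105 on, both legs of which were measured, the mean difference was 1.53 for Fmod, 2.24 for Prelp and 2.13 for Dcn, and with the range of rat numbers in the model it was 2.02, 2.44 and 2.32, each still called. At 28 DPI the order was Aspn at 4.42 ± 0.48, Bgn at 3.72 ± 0.42, Lum at 3.44 ± 0.40, Ogn at 2.12 ± 0.35, Prelp at 2.05 ± 0.40, Dcn at 1.38 ± 0.34, Omd at 1.18 ± 0.27 and Fmod at 0.99 ± 0.91. The genes not called were Omd at 7 DPI, Fmod at 28 DPI and both at 14 DPI, in both arms. With the range of rat numbers in the model, Fmod in MMG muscle at 28 DPI was called (1.94, adjusted p = 0.028). In non-repaired muscle at 14 DPI Omd was 0.94 ± 0.27, and it was called at 1.45 without the contralateral muscle of rat TS5.129 and at 1.07 without the injured muscle of rat TS5.133. With a pseudocount of 0.1 TPM it was called at 1.29 (limma, adjusted p = 0.0013). With size factors, Dcn in non-repaired muscle at 28 DPI was 0.91 and Omd 0.85, and Omd in MMG muscle was 0.70, all below the fold limit. In non-repaired rats the injured values were entirely above the contralateral values for 4, 7, 8 and 7 genes at 3, 7, 14 and 28 DPI, beside 59.7%, 67%, 73.1% and 67.4% of all tested genes. In MMG rats they were entirely above for 6, 7, 8 and 8 genes, beside 62.2%, 68.4%, 75.2% and 69.7%, and 1 gene, Omd, was entirely below at 3 DPI, beside 17.5%.

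Rats with both legs measured gave the same picture within animals. Without running there were 4, 10, 4 and 4 such rats at 3, 7, 14 and 28 DPI over both arms. Dcn, Bgn, Aspn, Lum, Prelp and Ogn were higher in the injured leg of every one of these rats. The share of all tested genes that were so was not computed. Between the groups, 59.7% to 75.2% of all tested genes lay entirely above the contralateral values, so the result is not particular to the family. On the successive days Fmod was higher in 1 of 4, 10 of 10, 4 of 4 and 3 of 4 rats, and Omd in 1 of 4, 8 of 10, 4 of 4 and 4 of 4. In running rats, injured against contralateral muscle gave 5, 7 and 7 of the 8 genes called higher at 3, 7 and 14 DPI, beside 35.6%, 40% and 24.6% of all genes, where higher calls made up 84.5%, 91.5% and 97.3% of calls in TPM and 58.3%, 59.5% and 67% with size factors. Size factors lowered the count of 5 to 3 at 3 DPI in running rats, with Dcn (0.52) and Prelp (0.75) uncalled, and there made Fmod (-1.48, adjusted p = 0.0165) and Omd (-1.27, adjusted p = 5.66e-11) calls in the lower direction. They also ended the calls of Dcn at 7 DPI (0.85) and Fmod at 14 DPI (1.08, adjusted p = 0.12). With the rat as a fixed block, Omd in running rats was called lower at 3 DPI (-1.09 in place of -0.82) and higher at 14 DPI (1.03 in place of 0.95). A pseudocount of 0.1 TPM gave the same calls, at -1.085 and 1.205.

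**Figure D3:**
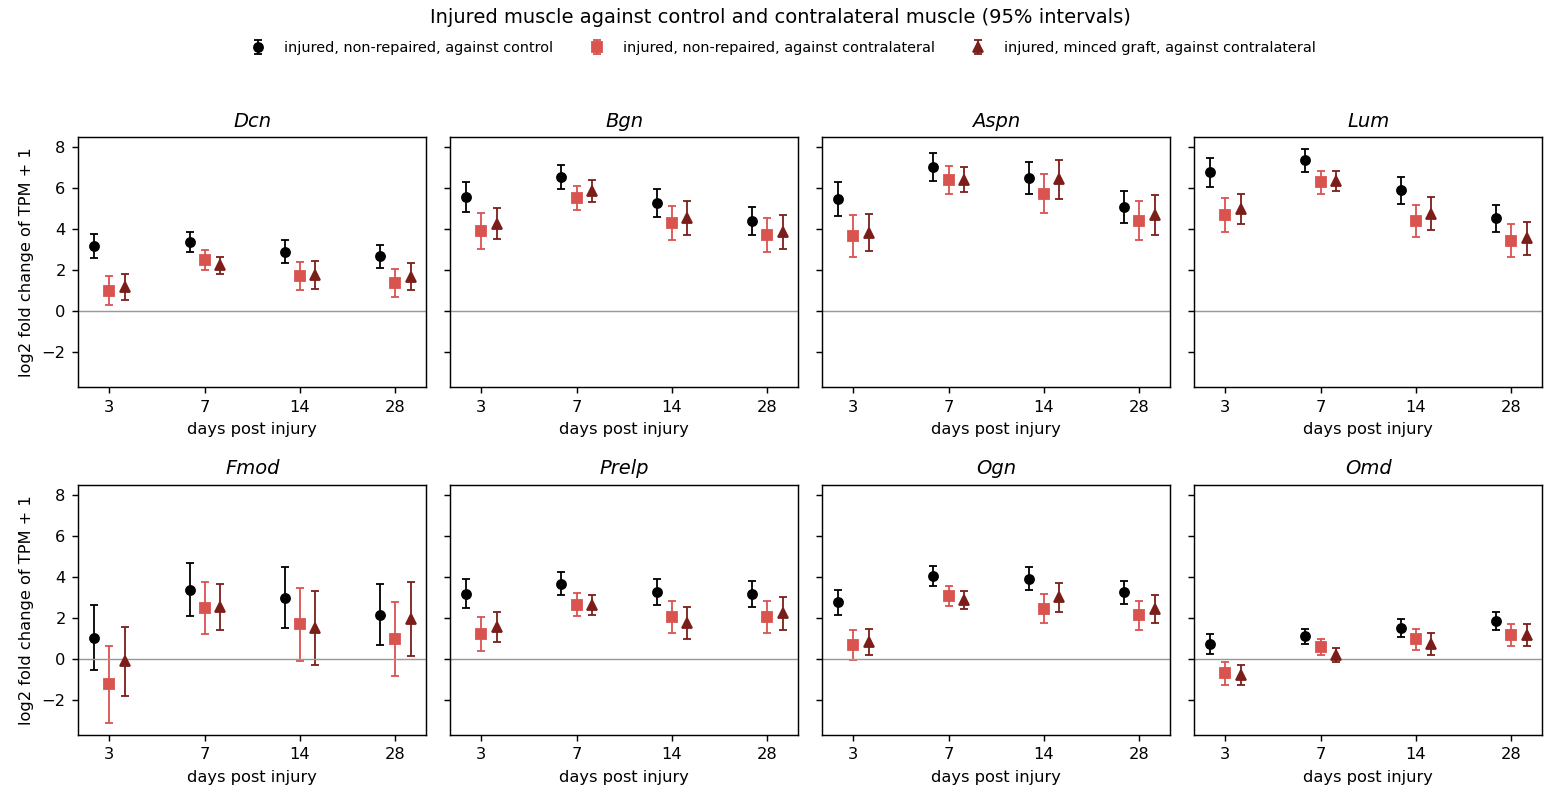
Log2 fold change of TPM + 1 with 95% intervals for each gene by days post injury, for non-repaired injured muscle against control and for non-repaired and MMG injured muscle against their contralateral groups. Values against control exceed those against the contralateral leg at 3 DPI, and Omd climbs from below to above 0 against the contralateral leg.

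The 8 genes followed different courses after injury. Over injured muscle of both arms without running, Fmod (log2 difference 1.85 ± 0.45), Ogn (1.30 ± 0.17) and Aspn (1.56 ± 0.24) rose from 3 to 7 DPI, with 6.96% of all genes called in either direction. From 7 to 14 DPI, Bgn (-1.25 ± 0.21) and Lum (-1.46 ± 0.20) fell, with 8.88% of all genes called, 9.74% of them higher in TPM and 55.1% with size factors. From 14 to 28 DPI, Aspn (-1.59 ± 0.28), Lum (-1.45 ± 0.23) and Bgn (-1.001 ± 0.24) fell, with 1.13% of all genes called. With size factors neither fall of Bgn was called (-0.86 and -0.96), and its difference from 3 to 7 DPI was (1.03). Dcn and Prelp were not called in any of the 3 steps. Dcn differed by 0.09 ± 0.17, -0.46 ± 0.17 and -0.14 ± 0.20, and Prelp by 0.26 ± 0.19, -0.49 ± 0.20 and 0.06 ± 0.23. Omd, in contrast, had positive differences at each step, 0.30 ± 0.13, 0.58 ± 0.13 and 0.37 ± 0.15, none beyond the fold limit. Rats are numbered in the labels, and the days fell into different ranges of numbers. Rats TS5.001 to TS5.032 gave muscles of 3 and 7 DPI, TS5.073 to TS5.104 of 3 and 28 DPI, and TS5.105 to TS5.144 of 7 and 14 DPI, so day and range overlap only in part. No range held muscles of both 14 and 28 DPI, so for that step the model with ranges draws on the muscles of 3 and 7 DPI. With these ranges in the model, the calls at the first and second steps were made for the same genes, and from 14 to 28 DPI Bgn was -0.53 and no longer called while Lum, Aspn and Ogn, at -1.85, -1.85 and -1.01, were.

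Whether the signed difference between the legs, injured minus contralateral, was higher or lower at 28 than at 3 DPI was tested directly, a comparison added after the values had been seen. Omd (1.90 ± 0.27, adjusted p = 3.2e-09), Ogn (1.53 ± 0.35, adjusted p = 1.2e-04) and Fmod (2.15 ± 0.90, adjusted p = 0.034) had a higher difference at 28 DPI, and Lum (-1.33 ± 0.40, adjusted p = 0.0031) had a lower one. Over both arms Omd went from -0.74 to 1.16 and Fmod from -0.69 to 1.46, changing sign, whereas Ogn went from 0.74 to 2.27 and Lum from 4.84 to 3.502 with the injured leg higher at both days. Dcn (0.44 ± 0.34, adjusted p = 0.27), Prelp (0.76 ± 0.39, adjusted p = 0.093), Aspn (0.80 ± 0.48, adjusted p = 0.15) and Bgn (-0.30 ± 0.42, adjusted p = 0.56) were not called. Of all tested genes 22.3% were called in either direction. The contralateral muscle at 3 DPI enters this difference, and Fmod was there at 11.2, 12.7, 51.5 and 57.5 TPM. Fmod lost its call in 8 of 26 fits that each left out 1 muscle, with values of 1.63 to 2.68 over all 26, the lowest without the contralateral muscle of rat TS5.014 (1.63) or rat TS5.010 (1.63). Aspn was called with size factors (1.02, adjusted p = 0.048), without the injured muscle of rat TS5.075 at 28 DPI (1.06) and without the contralateral muscle of rat TS5.017 (1.15), and Prelp was called without that last muscle (1.14). Over the 26 fits 3 to 6 genes were called. In the non-repaired arm alone 2 of the 8 genes were called.

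Fibromodulin varied together with 4 of the 5 listed tendon markers, and not with Scx, the transcription factor scleraxis of tendon cells. Over the 114 muscles, the genes most like Fmod in log2(TPM + 1) were Kera (Pearson r = 0.963), Cilp2 (0.920) and Tnmd (0.918), r was 0.832 with Comp, 0.790 with Thbs4 and 0.364 with Scx, and r with the other 7 members ran from 0.511 (Omd) to 0.746 (Ogn). With group means removed, r was 0.9501 for Kera, 0.861 to 0.931 for Tnmd, Thbs4, Comp and Cilp2 and -0.268 for Scx, and it was 0.405 (Omd) to 0.868 (Prelp) for the members, so that Prelp was as close as Thbs4. Kera encodes keratocan, another class II member, and Tnmd encodes tenomodulin, a membrane protein of tendon cells. In non-repaired muscle at 7 DPI, Fmod was 81.98 to 163 TPM in the 4 rats up to TS5.032 and 20.9 to 52.5 TPM in the 4 rats from TS5.105 on. The 2 sets of rats did not overlap, and the share of all tested genes that parted them in this way was not computed. In the same muscles Tnmd averaged 80.3 and 29.5 TPM, Kera 63.2 and 18.7 TPM, and the summed tendon markers 463 and 297 TPM. Scx did not follow, with 110.1 and 113.6 TPM, and at 3 DPI it stood at 96.05 to 102.3 TPM while Fmod was 7.05 to 23.3 TPM. Scx was not alone in this. Thbs4, Comp, Tnmd and Cilp2 averaged 59.5, 8.80, 6.75 and 1.14 TPM at 3 DPI, against 4.85, 0.86, 0.83 and 0.52 TPM in control. Fmod averaged 12.6 TPM at 3 DPI and 5.18 TPM in control. Dcn (1013 to 1213 against 528 to 864 TPM) and Lum (1563 to 2042 against 635 to 1497 TPM) also lay higher in the rats of the lower numbers. High Fmod in uninjured legs came with high Kera. The contralateral muscles of rats TS5.010, TS5.014, TS5.002 and TS5.007 held 57.5, 51.5, 77.3 and 75.2 TPM of Fmod, with Kera at 49.9, 51.9, 67.4 and 89.8 TPM. The part of tendon tissue in these Fmod levels was not tested.

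**Figure D4:**
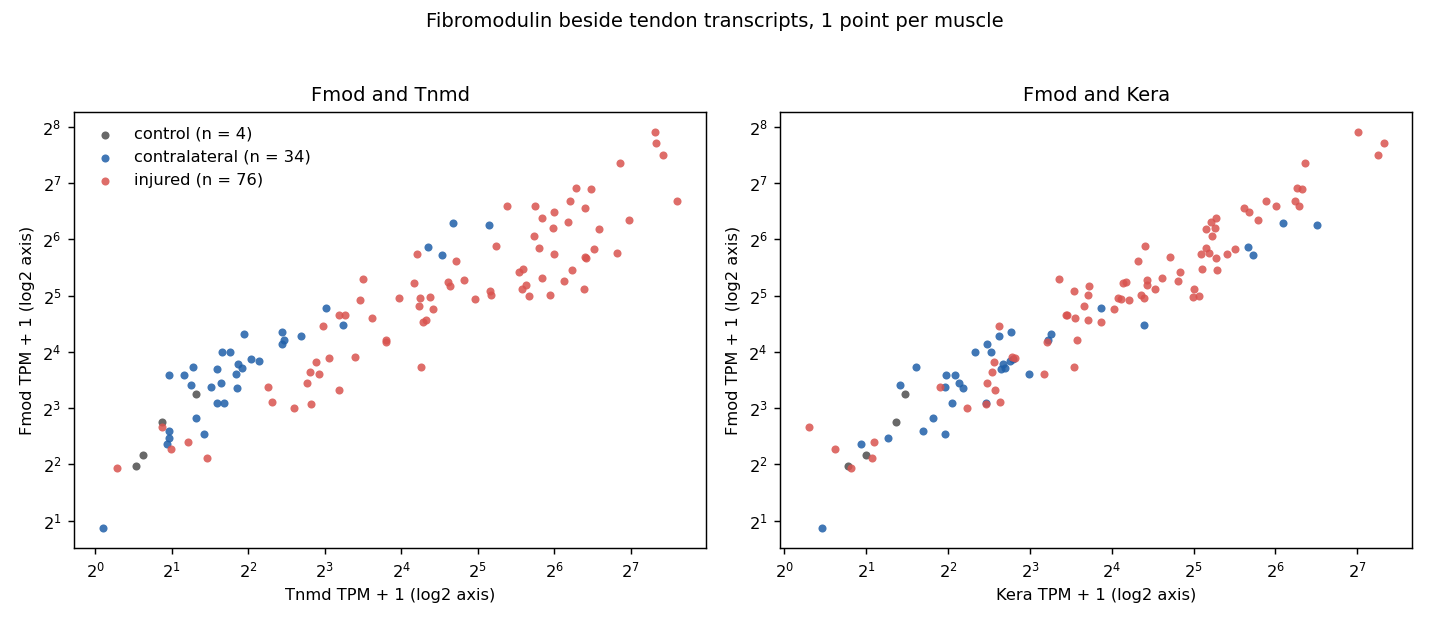
Fmod against Tnmd and against Kera, each as TPM + 1 on log2 axes, with 1 point per muscle of all 114 muscles and colors for control, contralateral and injured muscle. Points follow a rising band in both panels, and contralateral muscles with high Fmod sit at high Tnmd and Kera.

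Minced grafting did not give a called difference in any of the 8 genes. At 7 DPI the 8 MMG muscles ranged from 709 to 1216 TPM with a median of 959 TPM for Dcn, from 1002 to 2279 TPM with a median of 1755 TPM for Lum and from 606 to 939.8 TPM with a median of 827 TPM for Bgn, overlapping the non-repaired ranges given above. The summed level of the 8 genes averaged 2757 ± 565, 4125 ± 828, 2315 ± 761 and 1384 ± 372 TPM in MMG muscle (mean ± SD, n = 7, 8, 4 and 4), set beside the non-repaired sums given earlier. Across 4 days the 32 differences between MMG and non-repaired injured muscle ran from -0.27 (Omd, 7 DPI) to 0.96 (Fmod, 3 DPI) on the log2 scale. 28 of 32 were positive, none had an unadjusted p below 0.05 by limma, and the lowest adjusted p was 0.249. The medians of all tested genes were positive too, at 0.14, 0.109, 0.122 and 0.0747 on the 4 days, and with size factors they were near 0, 23 of the 32 values were positive and the family medians went from 0.309, 0.152, 0.216 and 0.182 to 0.143, 0.0296, 0.0831 and 0.103. Of all tested genes, 0.00883%, 0.0883%, 0.0265% and 0% were called in either direction at the 4 days. Intervals were not uniformly narrow. The 95% interval lay within 1 of 0 for 22 of the 32, for example -0.12 to 0.80 for Lum and -0.31 to 0.47 for Dcn at 7 DPI, but for Fmod at 3 DPI it was -0.48 to 2.39. Fmod at 3 DPI was 7.05, 7.62 and 23.3 TPM in non-repaired muscle and from 7.46 to 52.5 TPM with a median of 30.1 TPM in MMG muscle. These non-repaired rats were numbered 10 to 18 and the MMG rats 9 to 100, so arm and number range overlap only in part at 3 DPI. At 7 DPI, where both arms came from 2 number ranges of 4 rats each, the MMG difference for Dcn was -0.07 in rats up to TS5.032 and 0.24 in rats from TS5.105 on, for Bgn 0.07 and 0.51, for Lum 0.16 and 0.52, for Fmod -0.35 and 0.30 and for Prelp -0.13 and 0.19. The sign differed between ranges for Dcn, Fmod and Prelp.

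Running changed none of the 8 genes by a called amount in injured muscle. At 3 DPI Lum averaged 1197 ± 254 TPM (± SD, n = 8) in running and 866 ± 213 TPM (n = 3) in non-running non-repaired muscle, and Dcn averaged 983 ± 291 and 764 ± 107.6 TPM. Over both arms and 4 days the 32 differences between running and non-running injured muscle ran from -0.48 to 0.45. limma gave 1 of 32 an unadjusted p below 0.05, Lum at 7 DPI (0.45 ± 0.20, adjusted p = 0.27). All running injured muscles of 7 DPI came from rats up to TS5.032, as did 4 of 8 non-running muscles in each arm, so running and number range overlap only in part there. Among the rats up to TS5.032 the difference for Lum was 0.23 in non-repaired and -0.07 in MMG muscle. The share of all genes called was 0.0177%, 0%, 0% and 0.309% at the 4 days. In contralateral muscle the 24 differences ran from -0.61 to 0.94, with none called and 7 below an unadjusted p of 0.05, all at 7 DPI. The lowest p belonged to Ogn (0.94 ± 0.24, adjusted p = 0.069) and Dcn (0.91 ± 0.23, adjusted p = 0.069), and without the running MMG contralateral muscle of rat TS5.008 6 genes were called (1 without the non-running, non-repaired contralateral muscle of rat TS5.126). The running MMG contralateral muscle of rat TS5.007 stood highest of the 7 DPI contralateral muscles, with Dcn at 692 and Ogn at 78.9 TPM, and without it the differences were 0.55 for Ogn and 0.48 for Dcn. Running contralateral muscles of 7 DPI came from rats TS5.003 to TS5.008 and non-running, non-repaired ones from rats TS5.105 to TS5.126, so in that arm running and number range cannot be told apart. In the MMG arm 2 of 6 non-running muscles came from rats up to TS5.032. With the ranges in the model the differences were 0.76 for Ogn (adjusted p = 0.15) and 0.61 for Dcn (adjusted p = 0.202). Within the MMG rats up to TS5.032, 2 running against 2 non-running muscles, the mean differences were 1.12 for Ogn and 1.18 for Dcn and above 1 for all 8 genes, with the muscle of rat TS5.007 among the running ones. At 3, 7 and 14 DPI 0.265%, 0.00883% and 0% of all genes were called there. The difference of the graft effect between running and non-running rats gave 0 of 32 calls by limma and 0 at an unadjusted p below 0.05, with values from -1.64 (Fmod, 3 DPI) to 0.16, and 0.00883%, 0%, 0% and 0.00883% of all genes called. 29 of the 32 values were negative in TPM, where the medians of all tested genes were -0.0961, -0.0166, -0.157 and -0.0255, and 23 were negative with size factors, which turned the family median at 14 DPI from -0.088 to 0.0893. Only 8 intervals lay within 1 of 0, so most intervals include differences beyond the fold limit.

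**Figure D5:**
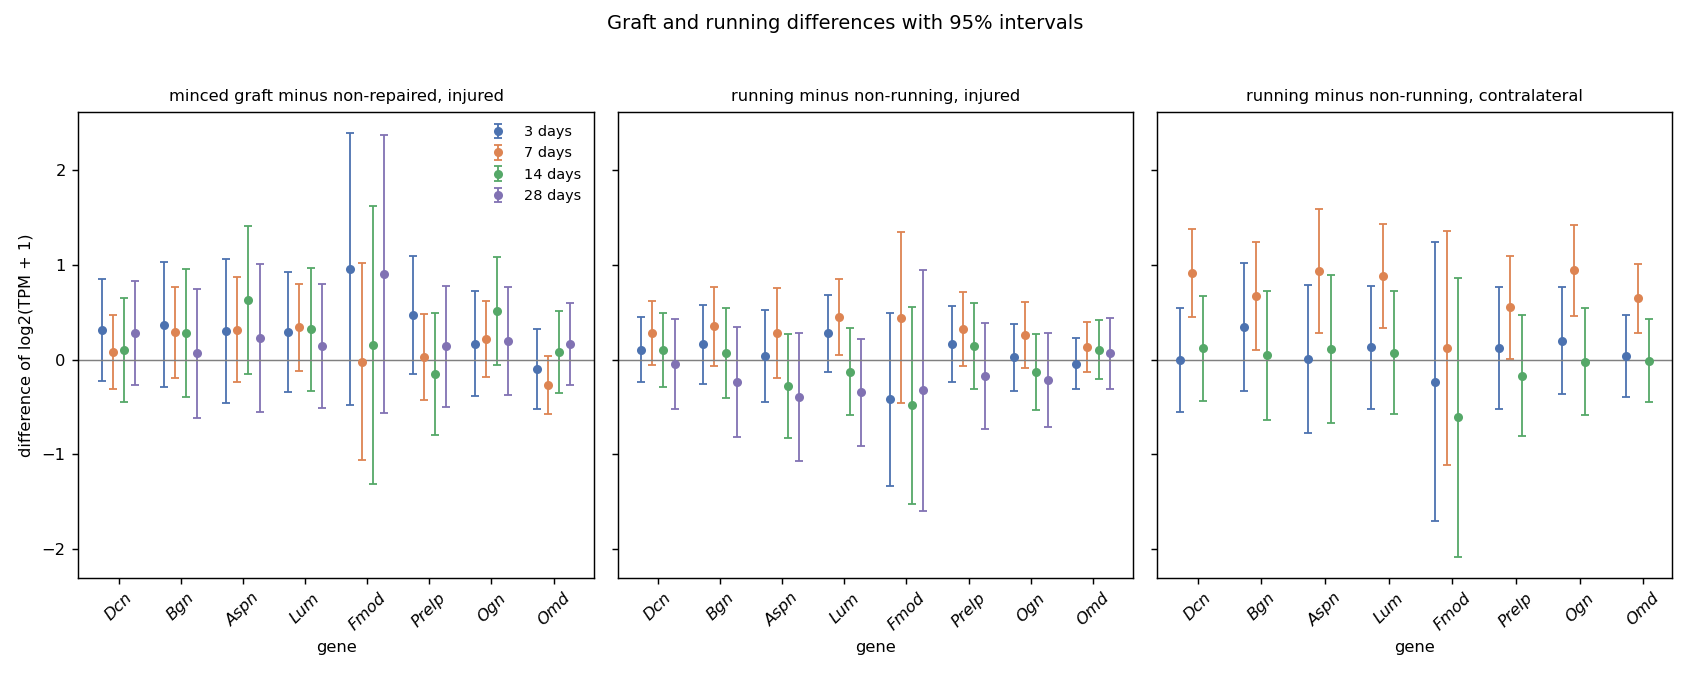
Differences of log2(TPM + 1) with 95% intervals for each gene at each day, for MMG minus non-repaired injured muscle, running minus non-running injured muscle and running minus non-running contralateral muscle. The Fmod intervals are the widest, and the contralateral differences at 7 DPI have intervals above 0 for 7 of the 8 genes.

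Genes that act with the family were followed in the comparison of non-repaired injured with control muscle, each count given for 3, 7, 14 and 28 DPI and read beside the backgrounds of that comparison. Of the other leucine-rich proteoglycan genes, 1, 2, 3 and 2 of 4 tested were called higher, below the background at 3 DPI and near it at 7 DPI. At 7 DPI these were Kera (3.79 ± 0.76, 1.26 ± 0.488 TPM in control muscle and 40.9 ± 28.98 TPM at 7 DPI) and Tsku, which encodes tsukushi (3.78 ± 0.23, 0.463 ± 0.155 TPM in control muscle and 20.1 ± 7.01 TPM at 7 DPI). Among the enzymes that build glycosaminoglycan chains, 17, 18, 13 and 9 of 22 were called higher and none lower. The largest changes at 7 DPI were in Chpf, a chondroitin polymerizing factor (3.48 ± 0.20), and Dse, the epimerase that makes dermatan sulfate (3.44 ± 0.20), and the smallest called were in B4galt7 (1.17 ± 0.09) and Fam20b (1.03 ± 0.10), which act on the linker between chain and core protein. All 9 tested collagens were called higher on all 4 days. Col1a1, of the main fibril-forming collagen, held 17.6 ± 4.40 TPM in control muscle and 3265 ± 1329 TPM at 7 DPI (7.38 ± 0.38), Col3a1 held 36.2 ± 13.1 TPM in control muscle and 3875 ± 1172 TPM at 7 DPI (6.74 ± 0.26), Col5a3 changed by 4.88 ± 0.25 and Col11a1 by 4.33 ± 0.29. The list median at 7 DPI was 5.197 for collagens, 1.88 for chain enzymes and 3.84 for the 8 genes themselves.

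Of the proteases that process or degrade the family, 11, 12, 8 and 7 of 14 were called higher. Mmp14 (6.53 ± 0.28), a membrane-bound metalloproteinase, and the gelatinase Mmp2 (5.48 ± 0.29) had the largest changes at 7 DPI, and Tll1, a tolloid protease (1.66 ± 0.11), and granzyme B, Gzmb (1.10 ± 0.18), the smallest called. Among receptors and ligands of decorin or biglycan, 11, 13, 10 and 10 of 17 were called higher and 1, 1, 1 and 0 lower. The hyaluronan receptor Cd44 (3.89 ± 0.21) and the Toll-like receptor Tlr2 (3.68 ± 0.22) rose most at 7 DPI, Igf1r, the insulin-like growth factor receptor, rose by 1.18 ± 0.13, and Mstn, which encodes myostatin, fell by 2.03 on the log2 scale (19.8 ± 5.76 TPM in control muscle and 4.07 ± 1.26 TPM at 7 DPI). Of the other secreted proteoglycans, 3, 4, 2 and 2 of 7 tested were called higher, near the background on each day. Proteoglycans with symbols later in the alphabet than the end of the expression table could not be tested. Agrn, the agrin of the neuromuscular junction (1.82 ± 0.16), Prg4, the lubricin of joints and tendon sheaths (1.52 ± 0.20), and Srgn, the proteoglycan of leukocyte granules (1.43 ± 0.16), were called at 7 DPI. Acan, the aggrecan of cartilage, was listed at 0 in all 4 control muscles and at 3.22 ± 2.12 TPM at 7 DPI (SD, n = 8).

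The transcripts most like each member over the 114 muscles, by Pearson r of log2(TPM + 1), are given as a description, since the muscles share injury, day and cell make-up. Lum was most like Col5a2 (r = 0.996), Clmp (0.994) and Ptgfrn (0.994), and Bgn was most like Aebp1 (0.995), Ppic (0.994) and Col6a2 (0.993). Aspn came closest to Fap (0.989), Ssc5d (0.987) and Thbs3 (0.986). Dcn came closest to Rnase4 (0.986), Reck (0.976) and C1r (0.976), and Prelp to Pdgfrl (0.977), Cpq (0.974) and Dcn (0.973), itself a member. For Ogn these were Dpt (0.978), C1qtnf2 (0.972) and Postn (0.970). The transcript closest to Omd was Gdf10 (0.885). Within the family, Bgn and Lum were the most alike pair (r = 0.988) and Lum and Omd the least alike (r = 0.145).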

How the data were processed

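RNA of rat TA muscle libraries had been pseudo-aligned by the authors with Kallisto, default parameters, against a Genbank-annotated rat build 6.0, and deposited as 1 table of TPM per gene symbol. Per the labels DESeq was also among the authors' tools, and neither version is given in the sources used here. TPM keep no read depth, so counting error cannot be computed. The table holds 16182 symbols in alphabetical order that end in the letter T, so genes with later symbols are absent from every list and share. Its last line was incomplete, leaving 16181.

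Groups came from the labels. Libraries with fewer than 7000 symbols above 1 TPM were left out, and libraries of 1 muscle were averaged (2 muscles). log2(TPM + 1) was fitted in 1 group-means model of 114 muscles in 31 groups (limma 3.58.1, R 4.3.3, mean-variance trend, 83 residual degrees of freedom) over the 11328 symbols with a group mean above 1 TPM. p-values were adjusted by Benjamini-Hochberg over all of them, and ± after a log2 value is its SE. Script checks on simulated data were run. 37 comparisons were planned and 1 was added after values were seen. Alternatives were another pseudocount (0.1), no filter, median-of-ratios size factors, other sample sets, rat-number range as a covariate, and leaving out each muscle.

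Legs of the same rat pair the muscles. In 34 rats with both legs the mean correlation of their residuals was 0.0944 (lowest -0.0679, over 0.1 in 15), against -0.000204 between rats, and the fitted block correlation was 0.0260.

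The 8 genes and the gene lists were chosen with earlier results of these data known. Named genes were the 8 members, the 2 highest and 2 lowest called changes per pathway list at 7 DPI, and the 3 transcripts most like each member (for Omd, only the closest is reported here). 15 listed genes were absent from the table, and Ccn2 was matched as Ctgf. Promoters are RefSeq's (GRCr8). Python 3.11.15 was used for tables and figures.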

Additional observations from a re-analysis of the deposited data

Results flagged for a closer look

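In groups of 4 to 10 muscles, 1 muscle stood far from the rest in 14 of the gene and group sets (10.9% of those tested) by Dixon's test at 95%, where chance gives about 1 in 20. The 8 genes were measured in the same muscles, so these sets are not independent. In injured muscle these were, at 3 DPI in running MMG rats, rat TS5.025 with Dcn at 1216 and Fmod at 29.3 TPM. At 7 DPI they were rat TS5.024 of the non-running MMG group with Fmod at 209 and Omd at 4.93 TPM, and rat TS5.031 of the running non-repaired group with Bgn at 1680.0 TPM. At 14 DPI without running, rat TS5.135 (MMG) held Bgn at 518 and Ogn at 335 TPM, and rat TS5.137 (non-repaired) held Lum at 629 and Ogn at 173 TPM. At 28 DPI rat TS5.082 (non-repaired, non-running) held Bgn at 215 and Ogn at 124 TPM. In contralateral muscle at 7 DPI without running, rat TS5.127 (MMG) held Aspn at 6.18 and Omd at 3.87 TPM, and rat TS5.106 (non-repaired) held Aspn at 1.15 TPM.

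The injury effect, injured minus contralateral leg, differed between 28 and 3 DPI for 4 genes, by 2.15 for Fmod, -1.33 for Lum, 1.53 for Ogn and 1.90 for Omd on the log2 scale (limma, adjusted p = 0.034, 0.0031, 1.2e-04 and 3.2e-09). Over all genes 22.3% were called in that comparison, 30.6% of them higher in TPM and 40.7% with size factors.

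All 9 libraries with contradicting labels had a summed level of the 8 genes above the highest control muscle (183 TPM). The library of rat TS5.011, labelled with another day than its rat, held 566 TPM. The libraries of running rats TS5.077, TS5.078, TS5.079 and TS5.080 at 28 DPI whose titles name the control leg held 821, 927, 803 and 1289 TPM, and those whose titles name the injured leg held 238, 218, 233 and 218 TPM.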

How the results depend on the processing

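Counts of called members are given here where an alternative moved them past 1.5 times. With median-of-ratios size factors, the count for MMG injured against contralateral muscle at 3 DPI went from 5 to 3, that for running injured against running contralateral muscle at 3 DPI from 5 to 3, that for contralateral against control at 7 DPI from 4 to 2, and that for injured muscle from 7 to 14 DPI from 2 to 1. Contralateral against control at 7, 14 and 28 DPI (4, 4 and 3) gave 1, 1 and 0 with control muscles averaged per rat and 0, 0 and 0 with the low-complexity libraries kept. At 14 and 28 DPI it gave 0 and 0 when only the compared groups were fitted and 7 and 5 with a pseudocount of 0.1. The non-repaired arm alone gave 2 at 7 DPI and 0 at 28 DPI, and the MMG arm alone 0 at 28 DPI. The non-repaired arm alone also gave 1 in place of 3 from 14 to 28 DPI and 2 in place of 4 for the injury effect at 28 against 3 DPI, which was 1 with the low-complexity libraries kept. By adjusted p alone, 6 members changed from 3 to 7 DPI and 5 from 7 to 14 DPI. The causes were not tested, except that an arm alone has fewer muscles.

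Leaving out 1 muscle moved contralateral against control to 1 to 5 calls at 7 DPI (1 without the right control TA of rat TS4.038) and 0 to 4 at 28 DPI (0 without that muscle, and 1 without the contralateral muscle of rat TS5.073, TS5.074, TS5.075 or TS5.076), and running against non-running contralateral muscle at 7 DPI to 0 to 6. The difference of Bgn in the injury effect (-0.30) was -0.65 to 0.0546 over such fits and turned sign without the contralateral muscle of rat TS5.013 (0.0297) or TS5.017 (0.0546). Fmod in MMG against contralateral muscle at 3 DPI (-0.13) was -1.19 to 0.925 and turned sign without the contralateral muscle of rat TS5.014 or the injured muscle of rat TS5.100 (0.111), with rat-number range in the model (0.460) and with the rat as a fixed replicate block (0.440). Omd against the contralateral leg at 7 DPI turned from 0.58 to -0.179 in non-repaired and from 0.19 to -0.460 in MMG muscle with size factors. The replicate block made Dcn in non-repaired against contralateral muscle at 3 DPI (0.997) a call, at 1.00 as a random and 1.105 as a fixed block. Of 304 values, the random block further changed Bgn at 7 DPI (1.001, called) and Prelp at 28 DPI (1.10, adjusted p = 0.0515, lost) in contralateral against control muscle. Of the 88 that a fixed block could be fitted to, it further made Omd in running injured against contralateral muscle a call at 3 DPI (-1.09) and 14 DPI (1.03). No other call changed with either block.

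TPM without counts leave the precision of low genes such as Omd unknown. Groups of 2 contralateral muscles and 4 control muscles from 2 rats limit every comparison that uses them.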

Other observations

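Some members are neighbours in the genome. In the GRCr8 annotation Ogn, Omd and Aspn follow each other on chromosome 17, Dcn and Lum are neighbouring protein-coding genes on chromosome 7, and Prelp and Fmod are on chromosome 13. Pearson r of log2(TPM + 1) over the 114 muscles was 0.947 for Ogn and Aspn, 0.521 for Ogn and Omd and 0.338 for Omd and Aspn, which lie side by side. It was 0.935 for Dcn and Lum and 0.696 for Prelp and Fmod. With group means removed, r was 0.897 for Ogn and Aspn, 0.521 for Ogn and Omd, 0.429 for Omd and Aspn, 0.789 for Dcn and Lum, and 0.868 for Prelp and Fmod. These values describe muscles that share groups, and no test was made.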
